A study of Homo sapiens with 18 samples.

Results

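The genes studied here, which remove or regenerate active glucocorticoids and androgens, were followed in H295R, a steroid-producing cell line established from an adrenocortical carcinoma. The 10 members, of 18417 genes measured, were HSD11B1, HSD11B2, H6PD, SRD5A1, AKR1D1, AKR1C1, AKR1C2, AKR1C3, ABCB1 and CES1. They were chosen by name, as the probe sets that the array's annotation gives to these symbols alone, and all 10 were measured, with no filter on low signal. All cells were grown in Zeocin with a pcDNA4 vector that was stably held and, per the labels, not inducible. The control line held the empty vector and the GRα line held pcDNA4_GRα, which encodes GRα, the form of the glucocorticoid receptor that binds hormone. Each line received ethanol vehicle, 100 nM dexamethasone (a synthetic glucocorticoid agonist) or 100 nM RU486 (mifepristone, a receptor antagonist with partial agonist activity) for 6 h, after 24 h without serum at 70% confluence. There were 3 arrays (replicates A, B and C) in each of these 6 groups, except GRα cells with RU486, which had 2 (B and C) because replicate A has no values and failed quality control per the labels. Each genotype was represented by a single stable line, so the receptor vector and any other difference between the lines cannot be told apart. The labels call the replicates biological without saying whether they were separate cultures, and the p-values rest on the spread among these arrays, part of which could be technical.

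The members act at different points of steroid clearance. HSD11B1 encodes 11β-hydroxysteroid dehydrogenase type 1, which regenerates active cortisol from cortisone with NADPH that H6PD, hexose-6-phosphate dehydrogenase, makes inside the endoplasmic reticulum, and HSD11B2 encodes the type 2 enzyme, which turns cortisol into inactive cortisone. SRD5A1 encodes steroid 5α-reductase type 1, and AKR1D1 encodes the 5β-reductase of bile acid and steroid hormone metabolism; both saturate the A ring of the steroid. AKR1C1, AKR1C2 and AKR1C3 are closely related aldo-keto reductases that reduce ketones at different positions: AKR1C1 is best known for inactivating progesterone, AKR1C2 for inactivating dihydrotestosterone, and AKR1C3 for making testosterone from androstenedione. ABCB1 encodes P-glycoprotein, an efflux pump of the plasma membrane that exports drugs and several steroids, and CES1 encodes carboxylesterase 1, which hydrolyses ester bonds of drugs and lipids.

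The 3 AKR1C genes lie side by side on chromosome 10, and the sequences before their start sites are shown because AKR1C1 and AKR1C3 differed between the lines while AKR1C2 did not pass the test. Each is the 250 bases before a RefSeq transcription start (build GRCh38.p14), written 5′ to 3′ in the direction of the gene. Capitals mark a run of 12 bases that all 4 windows share; AKR1C3 has 2 windows because RefSeq lists 2 starts.

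AKR1C1, chr10:4963165-4963414, plus strand: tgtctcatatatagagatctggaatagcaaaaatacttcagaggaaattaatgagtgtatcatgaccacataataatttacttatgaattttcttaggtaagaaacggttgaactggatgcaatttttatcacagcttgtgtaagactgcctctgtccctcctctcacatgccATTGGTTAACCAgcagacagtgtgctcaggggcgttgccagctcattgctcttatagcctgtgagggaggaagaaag
AKR1C2, chr10:5003858-5004107, minus strand: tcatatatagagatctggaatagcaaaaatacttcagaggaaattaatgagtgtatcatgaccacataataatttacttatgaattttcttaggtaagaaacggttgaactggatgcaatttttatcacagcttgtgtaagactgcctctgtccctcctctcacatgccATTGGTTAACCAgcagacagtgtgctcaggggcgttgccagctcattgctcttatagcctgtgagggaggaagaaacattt
AKR1C3, window 1, chr10:5048531-5048780, plus strand: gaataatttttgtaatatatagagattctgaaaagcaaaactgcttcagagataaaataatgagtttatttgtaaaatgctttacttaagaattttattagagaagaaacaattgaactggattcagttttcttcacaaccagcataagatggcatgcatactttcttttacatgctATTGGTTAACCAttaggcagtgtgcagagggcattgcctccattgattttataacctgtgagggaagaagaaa
AKR1C3, window 2, chr10:5094164-5094413, plus strand: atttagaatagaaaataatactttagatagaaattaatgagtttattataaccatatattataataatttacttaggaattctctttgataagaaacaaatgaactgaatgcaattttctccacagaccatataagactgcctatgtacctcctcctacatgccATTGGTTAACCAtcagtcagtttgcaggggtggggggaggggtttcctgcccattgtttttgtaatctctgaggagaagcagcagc

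The AKR1C1 and AKR1C2 windows were identical at 245 of 246 aligned bases (99.6%). The AKR1C1 window matched those of AKR1C3 at 78.3% and 79.8% of aligned bases. The shared run ATTGGTTAACCA began 77 bases before the start of AKR1C1, 81 before AKR1C2, and 73 and 86 before the 2 starts of AKR1C3. Sequences of this kind were found for 8 of the 10 members, in 10 windows. The 6-base glucocorticoid receptor motif TGTTCT, searched on both strands, was present in 2 of these 10 windows, those of H6PD and ABCB1, against 12.4% of 35116 windows of the same length. The full palindrome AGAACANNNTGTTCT, which contains that motif, was in 1 window of all genes and in 0 of the members. The core of the antioxidant response element, TGACNNNGC, was in 10.9% of all windows and in 0 of the members' windows. These letter matches are descriptions of the sequence and not of receptor binding.

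The values are log2 signals normalized by the authors. A probe set's level can be compared between groups but not with that of another probe set, so the 10 genes were not ranked against each other. Whether a signal lay above background was not tested, as the table carries no detection calls. As a reference for low signal, 13 genes restricted to other tissues had mean signals from 3.77 (MYH1) to 5.98 (LCE3D). The mean signals of AKR1D1 (4.31), HSD11B1 (4.72) and HSD11B2 (5.93) lay within this range. NR3C1, the receptor gene and the check of the line labels, was higher in GRα cells by 0.59 ± 0.07 (SE) in vehicle, 0.71 ± 0.07 in dexamethasone and 0.61 ± 0.07 in RU486 (limma adjusted p at most 3.99e-06). The receptor target ZBTB16 rose with dexamethasone by 2.49 in GRα cells and by 1.42 in control cells, as did PER1 by 1.34 and 0.95. Of the adrenocortical markers, 13 of 17 were measured, with mean signals from 5.34 (CYP11B2) to 10.33 (SCARB1). In GRα against control vehicle cells 7 of these 13 were lower, SULT2A1 among them (-1.09), and 1 was higher. Over all genes 33.4% were called in that comparison, and the other marker counts in this paragraph stand beside the same share. Mean signals ran from 3.63 (FGG) to 7.87 (CPS1) over 15 hepatocyte markers, and among these CYP2E1 was higher by 0.68 and CPS1 lower by 0.46 in GRα vehicle cells. Chromaffin markers ran from 4.78 to 6.81, fibroblast markers from 3.56 to 7.36, endothelial markers from 4.02 to 6.83 and leukocyte markers from 3.81 to 6.22. In GRα vehicle cells 1 of 8 chromaffin markers was higher (CHGA, 0.54) and 1 lower (GATA3, -0.57), 2 of 8 fibroblast markers were higher (COL1A1, 0.53, and PDGFRB, 0.34), as were 2 of 7 endothelial markers (CDH5, 0.28, and KDR, 0.25) and 1 of 7 leukocyte markers (ITGAM, 0.33). The part of these marker differences in the results on the 10 genes was not tested. GRα vehicle replicate B stood apart, with the lowest array weight (0.194, others 0.654 to 2.3). Where a member's line difference in vehicle gained or lost its call without this array, that is stated. The members' ligand effects in GRα cells, the markers, the neighbours and the gene lists are given only with it.

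**Figure D1:**
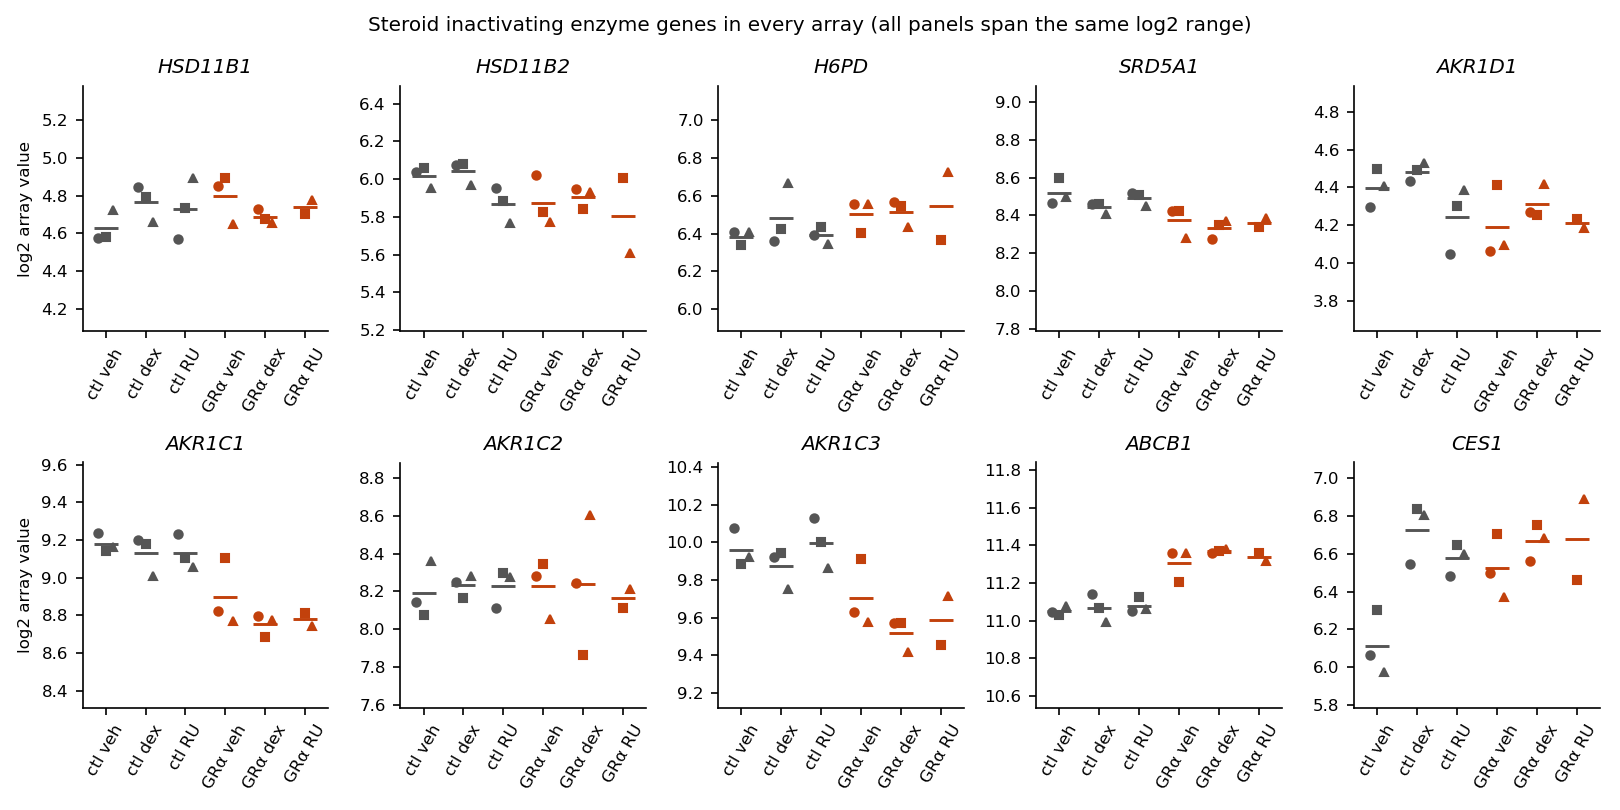
Log2 array values of the 10 genes, 1 panel per gene and all spanning the same range. Points are single arrays (circle, square and triangle for replicates A, B and C), bars are group means, grey is the control line (ctl) and orange the GRα line, with vehicle (veh), dexamethasone (dex) or RU486 (RU). All 8 GRα arrays lie above all 9 control arrays for ABCB1, and the 3 control vehicle arrays are the lowest of the 17 for CES1. How many of all genes show either pattern was not counted.

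The first question was whether the clearance genes differed between the receptor line and the empty-vector line. In vehicle, ABCB1 and CES1 were higher and AKR1C1 was lower in GRα than in control cells, which is 3 of the 10 members called at a limma Benjamini-Hochberg adjusted p under 0.05. Over all genes 33.4% were called in this comparison, so the members' share was close to the background. In dexamethasone and in RU486 the members called were ABCB1, higher, and AKR1C1 and AKR1C3, lower, again 3 of 10 each, against 33.3% and 29.2% of all genes. The arrays of the lines did not overlap for 4 members in vehicle, 6 in dexamethasone and 4 in RU486, where 40.5%, 45.6% and 54.8% of all genes did not overlap. The median difference of the 10 members was -0.05 in vehicle, -0.10 in dexamethasone and -0.05 in RU486, and that of all genes was 0.01, -0.02 and -0.01.

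A comparison averaged over the 3 treatments, added after the values were seen, uses all 17 arrays. It called AKR1C1, AKR1C3 and SRD5A1 lower and ABCB1 higher, 4 of 10 members, with 47.7% of all genes called. These 4 calls held in each of the 17 fits that left out a single array. Some of those fits added members: AKR1D1 without control vehicle A, control RU486 A, GRα vehicle B or GRα dexamethasone C, CES1 without control vehicle B or GRα RU486 B, H6PD without control dexamethasone C or GRα RU486 B, and HSD11B2 without GRα vehicle A or GRα RU486 B (adjusted p from 0.00699 to 0.0455).

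**Figure D2:**
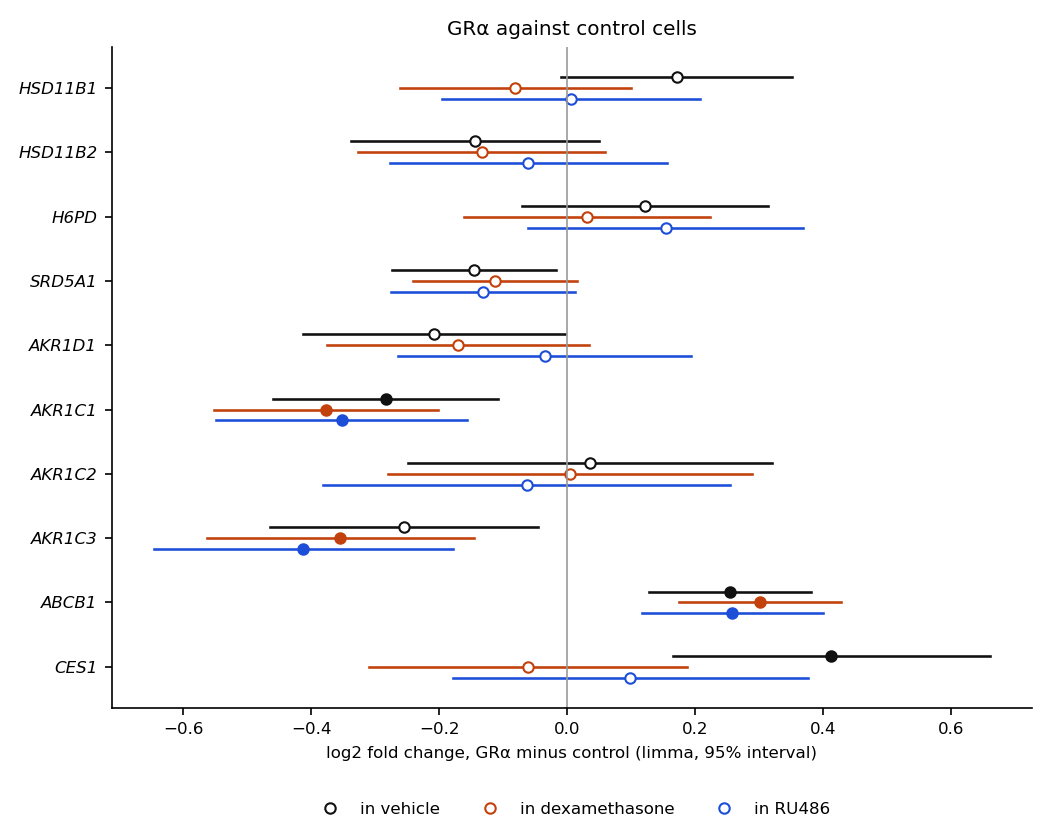
Difference between GRα and control cells in log2 (x axis) for each gene within each treatment, with the 95% interval from the limma fit. Filled points have an adjusted p under 0.05 over all genes: AKR1C1 and ABCB1 in all 3 treatments, AKR1C3 in dexamethasone and RU486, and CES1 in vehicle.

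ABCB1, the efflux pump, separated the lines in every array. In control cells its log2 values in replicates A, B and C were 11.05, 11.03 and 11.08 in vehicle, 11.14, 11.07 and 11.00 in dexamethasone, and 11.05, 11.12 and 11.06 in RU486. In GRα cells they were 11.36, 11.21 and 11.36 in vehicle, 11.36, 11.37 and 11.38 in dexamethasone, and 11.36 and 11.32 (B and C) in RU486. Every GRα array was higher than every control array, whatever the treatment. How many of all genes show such a separation was not counted. Within a treatment the lines did not overlap for 40.5% of all genes in vehicle, 45.6% in dexamethasone and 54.8% in RU486. The ABCB1 difference was 0.25 ± 0.06 (SE) in vehicle (1.19-fold, limma adjusted p = 0.00295), 0.30 ± 0.06 in dexamethasone (1.23-fold, adjusted p = 0.00067) and 0.26 ± 0.07 in RU486 (1.20-fold, adjusted p = 0.00687). Without GRα RU486 replicate B, which leaves a single GRα array whose spread is assumed to be that of the other groups, the RU486 difference was 0.24 and no longer called (adjusted p = 0.0675). Averaged over treatments ABCB1 was higher by 0.27 ± 0.04 (SE; 1.21-fold, adjusted p = 5.09e-06).

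Neither ligand called ABCB1 in either line. Its dexamethasone effect was 0.06 in GRα cells (95% interval -0.06 to 0.19) and 0.01 in control cells (-0.11 to 0.14). Its RU486 effect was 0.03 in each line, with intervals from -0.11 to 0.17 in GRα cells and from -0.10 to 0.15 in control cells. ABCB4, the phospholipid flippase encoded beside ABCB1, differed by 0.13 between the vehicle-treated lines and was not called (adjusted p = 0.0851). Another neighbour, SLC25A40, a mitochondrial carrier, was lower in GRα cells by 0.33 ± 0.07 (adjusted p = 0.00227). The genes whose values followed ABCB1 most closely over the 17 arrays were SPTBN1 (Pearson r 0.98), TSHZ2 (0.98) and MTURN (0.978), a likeness that includes the difference between the lines.

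AKR1C1, which inactivates progesterone, was lower in GRα cells under each treatment. Its values in control cells were 9.24, 9.14 and 9.17 in vehicle, 9.20, 9.18 and 9.01 in dexamethasone, and 9.23, 9.11 and 9.06 in RU486. In GRα cells they were 8.82, 9.10 and 8.77 in vehicle, 8.80, 8.69 and 8.77 in dexamethasone, and 8.81 and 8.75 in RU486. Of the 8 GRα arrays, 7 lay below all control arrays, and the exception was GRα vehicle replicate B at 9.10. The differences were -0.28 ± 0.08 (SE; 1.22-fold lower, adjusted p = 0.0133) in vehicle, -0.38 ± 0.08 (1.30-fold lower, adjusted p = 0.00167) in dexamethasone and -0.35 ± 0.09 (1.28-fold lower, adjusted p = 0.00764) in RU486, all from the limma fit.

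The AKR1C1 call in vehicle depended on single arrays. It was lost without control vehicle replicate A (adjusted p = 0.0552), GRα vehicle replicate A (0.0577) or GRα vehicle replicate C (0.0676), and in a fit of the vehicle arrays alone (0.0631). Without GRα vehicle replicate B the difference was -0.39 (adjusted p = 0.000518). The RU486 call was lost without GRα RU486 replicate C (adjusted p = 0.0753), and the dexamethasone call held in all 17 fits.

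A further AKR1C1 probe set, with a lower mean signal, was not used for the gene value. Fitted per probe set, it gave -0.36 in vehicle (adjusted p = 0.00654) and -0.30 in RU486 (0.0423), against -0.28 and -0.35 for the probe set used. In dexamethasone it gave -0.09 (adjusted p = 0.547) where the probe set used gave -0.38 (0.00302), so the probe sets disagreed there. AKR1C1 and AKR1C2 are also nearly identical in their coding sequences, and how far each probe set measures RNA of the other gene was not tested.

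AKR1C3, which reduces androstenedione to testosterone, was lower in GRα cells with dexamethasone and with RU486. Its control values were 10.07, 9.89 and 9.92 in vehicle, 9.92, 9.94 and 9.75 in dexamethasone, and 10.13, 10.00 and 9.87 in RU486. Its GRα values were 9.63, 9.91 and 9.58 in vehicle, 9.57, 9.57 and 9.42 in dexamethasone, and 9.45 and 9.72 in RU486. The lines did not overlap in dexamethasone or RU486, and overlapped in vehicle through GRα vehicle replicate B at 9.91. The difference was -0.35 ± 0.10 (SE; 1.28-fold lower, adjusted p = 0.00967) in dexamethasone and -0.41 ± 0.11 (1.33-fold lower, adjusted p = 0.00861) in RU486. In vehicle it was -0.25 ± 0.10 and was not called (adjusted p = 0.0574); without GRα vehicle replicate B it was -0.36 (0.00916), and without either GRα RU486 array the p was 0.0498 at the same size. It was also called with all arrays when the genes of lowest signal were left out (0.042), with trend and robust eBayes (0.0278) and with array weights (-0.31, 0.0159). Without GRα RU486 replicate B the RU486 difference was -0.28 and not called (adjusted p = 0.161).

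AKR1C2, which inactivates dihydrotestosterone, did not pass the test in any comparison. Its values were 8.14, 8.08 and 8.36 in control vehicle cells and 8.28, 8.35 and 8.06 in GRα vehicle cells. In dexamethasone they were 8.25, 8.16 and 8.28 in control cells and 8.24, 7.86 and 8.61 in GRα cells, the widest spread of any group of this gene. The lines overlapped in all 3 treatments, and the difference averaged over treatments was -0.01, with a 95% interval from -0.18 to 0.16. The same average was -0.34 for AKR1C1 (-0.44 to -0.23, adjusted p = 1.78e-05) and -0.34 for AKR1C3 (-0.47 to -0.21, adjusted p = 0.000107).

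Over the 17 arrays AKR1C1 and AKR1C3 followed each other with a Pearson r of 0.916, which includes their shared difference between the lines. After each line's mean was subtracted r was 0.739, and without GRα vehicle replicate B, left out after the values were seen, it was 0.511. AKR1C1 and AKR1C2, whose promoter windows are almost the same, had an r of 0.0961 over all arrays, 0.182 after subtraction and 0.0148 after subtraction without that array. The arrays share groups and normalization, so these values are descriptions. The genes most like AKR1C1 over the 17 arrays were VAMP7 (r 0.963), PHGDH (0.96) and VDAC2 (0.959), and those most like AKR1C3 were HADHB (0.968), DCUN1D5 (0.966) and SPP1 (0.961).

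Around the cluster, AKR1E2, another aldo-keto reductase, was lower in GRα vehicle cells by 0.68 ± 0.07 (SE, adjusted p = 4.38e-07), and KLF6, a zinc finger transcription factor on the same side, was higher by 0.47 ± 0.06 (8.22e-06). AKR1C4, the liver-type member of the cluster, differed by -0.07 and AKR1C8 by 0.01, and neither was called.

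SRD5A1, the 5α-reductase, was slightly lower in GRα cells. Its values were 8.47, 8.60 and 8.50 in control vehicle cells and 8.42, 8.42 and 8.28 in GRα vehicle cells. In dexamethasone they were 8.46, 8.46 and 8.41 against 8.27, 8.35 and 8.37, and in RU486 8.52, 8.51 and 8.45 against 8.34 and 8.39. The lines did not overlap within any treatment, where 40.5% (vehicle), 45.6% (dexamethasone) and 54.8% (RU486) of all genes did not overlap. No single treatment gave a call (-0.15, -0.11 and -0.13, adjusted p 0.0761, 0.179 and 0.172), although without GRα vehicle replicate B the vehicle difference was -0.17 (0.0451). Averaged over treatments the difference was -0.13 ± 0.04 (SE; 1.09-fold lower, limma adjusted p = 0.00658). The genes most like it over the 17 arrays were TMEM231 (r 0.913), TRIM62 (0.901) and SMIM10L2A (0.897).

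AKR1D1, the 5β-reductase, had low signals. They were 4.29, 4.50 and 4.40 in control vehicle cells and 4.06, 4.41 and 4.10 in GRα vehicle cells. Dexamethasone arrays read 4.43, 4.49 and 4.53 in control and 4.27, 4.25 and 4.42 in GRα cells, and RU486 arrays 4.05, 4.30 and 4.38 against 4.23 and 4.18. The lines did not overlap in dexamethasone and overlapped in the other treatments. The difference was not called in any treatment (-0.21 in vehicle, limma adjusted p = 0.113). In vehicle it was -0.32 without GRα vehicle replicate B (0.0115) and -0.29 with all arrays and array weights (0.018). Averaged over treatments it was -0.14 and not called (0.0619). That average was called with array weights (0.00935), quantile normalization again (0.022) or a replicate block (0.0189). The 3 measured neighbours on one side of AKR1D1 were higher in GRα vehicle cells: PTN, a secreted growth factor, by 2.07 ± 0.07, DGKI, a diacylglycerol kinase, by 1.51 ± 0.11, and CREB3L2, a transcription factor, by 0.88 ± 0.08 (adjusted p at most 1.91e-07). SVOPL, a transporter-like gene on the other side, was lower by 0.33 ± 0.09 (adjusted p = 0.00958). These made 3 higher and 1 lower of 6 neighbours, beside 33.4% of all genes called in vehicle. They are named although AKR1D1 itself was not called there. SRD5A1, HSD11B1, HSD11B2 and H6PD, also not called there, had 1 called neighbour of 6 each.

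The pair of 11β-hydroxysteroid dehydrogenases and their NADPH source gave no call in any comparison with all arrays. HSD11B1, which regenerates cortisol, read 4.58, 4.58 and 4.73 in control vehicle cells, 4.85, 4.80 and 4.66 with dexamethasone and 4.57, 4.73 and 4.90 with RU486. In GRα cells it read 4.85, 4.89 and 4.65 in vehicle, 4.73, 4.68 and 4.66 with dexamethasone, and 4.70 and 4.77 with RU486. All 17 arrays lay between 4.57 and 4.90, within the range of the genes restricted to other tissues, and the lines overlapped in every treatment. The difference in vehicle was 0.17, with a 95% interval from -0.01 to 0.35 (adjusted p = 0.139), and without GRα vehicle replicate C it was 0.25 (0.0427).

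HSD11B2, which inactivates cortisol, read 6.04, 6.06 and 5.95 in control vehicle cells and 6.02, 5.83 and 5.77 in GRα vehicle cells. With dexamethasone it read 6.07, 6.08 and 5.97 against 5.95, 5.84 and 5.93, and with RU486 5.95, 5.88 and 5.77 against 6.01 and 5.61. The lines did not overlap in dexamethasone, and the averaged difference was -0.11 (95% interval -0.23 to 0.00, adjusted p = 0.105). H6PD read 6.41, 6.34 and 6.41 in control vehicle cells and 6.56, 6.40 and 6.56 in GRα vehicle cells. With dexamethasone H6PD read 6.36, 6.42 and 6.67 against 6.57, 6.55 and 6.44, and with RU486 6.39, 6.44 and 6.34 against 6.37 and 6.73, so the lines overlapped under every treatment. Its averaged difference was 0.10 (95% interval -0.01 to 0.22, adjusted p = 0.139), and its RU486 difference was 0.33 (0.0408) without GRα RU486 replicate B and 0.15 (0.302) with it.

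CES1, the carboxylesterase, was the member with the widest range of values. In control cells it read 6.06, 6.30 and 5.98 in vehicle, 6.54, 6.84 and 6.80 with dexamethasone, and 6.49, 6.65 and 6.60 with RU486. In GRα cells it read 6.50, 6.71 and 6.37 in vehicle, 6.56, 6.75 and 6.69 with dexamethasone, and 6.46 and 6.89 with RU486. The 3 control vehicle arrays were the lowest of all 17, and the other 5 groups overlapped one another. How many of all genes show this pattern was not counted. In control cells CES1 rose with dexamethasone by 0.61 ± 0.12 (SE; 1.53-fold, limma adjusted p = 0.033), from 6.11 ± 0.17 to 6.73 ± 0.16 (SD, n = 3 each). It was the only member called for a ligand, in a comparison that called 0.261% of all genes (48).

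The RU486 effect on CES1 in control cells was 0.47 ± 0.12 (SE; 1.38-fold) with no overlap between arrays, an unadjusted limma p of 0.00103 and an adjusted p of 0.999. In that comparison the arrays of 12.2% of all genes did not overlap. In GRα cells the effects on CES1 were 0.14 ± 0.12 for dexamethasone and 0.15 ± 0.13 for RU486, and their arrays overlapped those of vehicle. The line difference in dexamethasone effect (GRα minus control) was -0.47 ± 0.17 and did not pass the threshold (limma adjusted p = 0.534). Before adjustment its limma p was 0.0111. The ligand effects in control cells and the line difference in dexamethasone effect share the control vehicle arrays. So does the line difference in vehicle, where CES1 was higher in GRα cells by 0.41 ± 0.12 (1.33-fold, limma adjusted p = 0.0111). With dexamethasone the lines differed by -0.06 (95% interval -0.31 to 0.19) and with RU486 by 0.10 (-0.18 to 0.38), and neither was called.

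**Figure D3:**
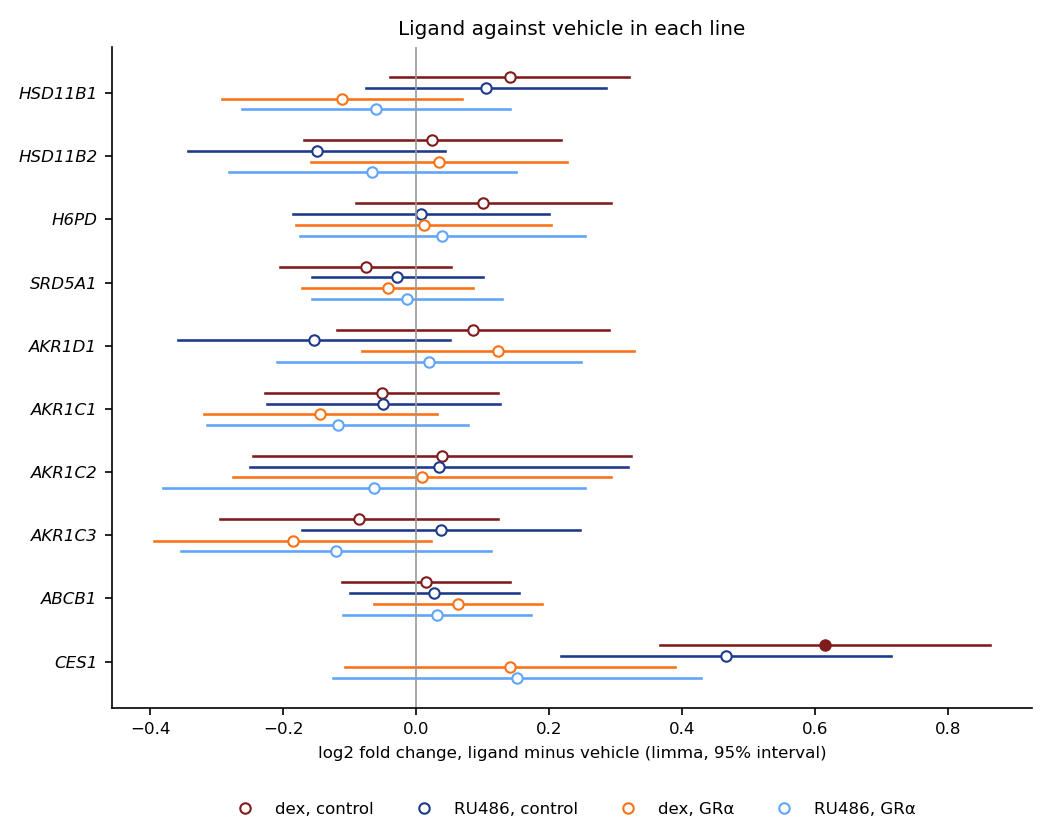
Effect of each ligand against vehicle in log2 (x axis) for each gene and line, with the 95% interval from the limma fit. The filled point, CES1 with dexamethasone in control cells at 0.61, is the only adjusted p under 0.05.

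Leaving out single arrays ended the CES1 calls in several fits. The dexamethasone call in control cells held in 12 of 17 fits and was lost without control vehicle replicate A (adjusted p = 0.174) or C (0.214), control dexamethasone replicate B (0.217) or C (0.209), or control RU486 replicate C (0.0533). The effect itself stayed between 0.55 and 0.71 in these 17 fits. The line difference in vehicle was lost without control vehicle replicate C (adjusted p = 0.0591) or GRα vehicle replicate B (0.0602).

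**Figure D4:**
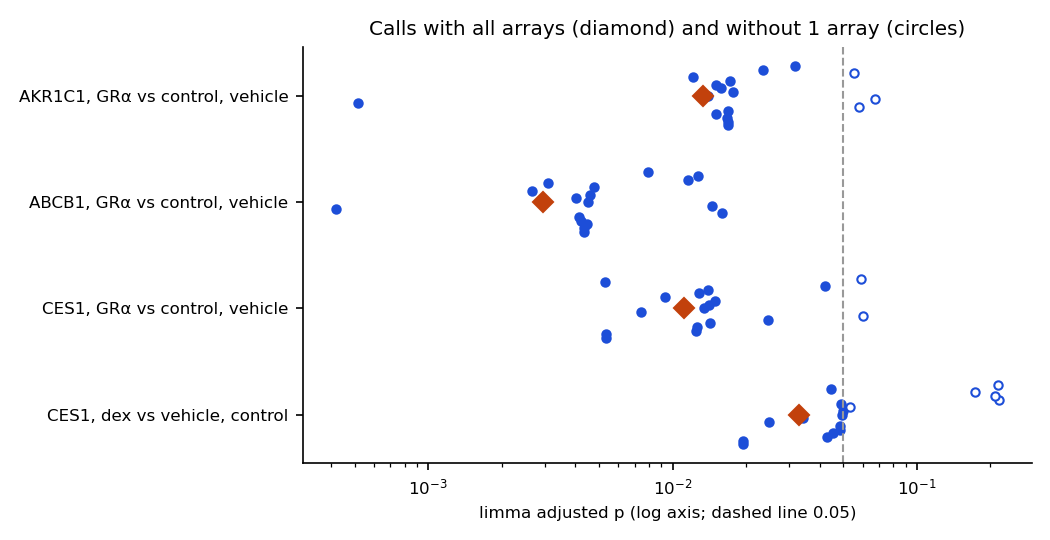
Limma adjusted p (log axis) of 4 calls in the fit of all 17 arrays (diamond) and in the 17 fits that each left out 1 array (circles, open where the p was 0.05 or more; dashed line at 0.05). ABCB1 between the vehicle-treated lines stayed under 0.05 in all 17 of these fits, and CES1 with dexamethasone in control cells crossed it in 5.

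CES1P1, a pseudogene beside CES1 with a similar sequence, differed by -0.03 with dexamethasone in control cells and by -0.07 between the vehicle-treated lines, and neither was called. How far the CES1 probe set measures RNA of related copies was not tested. The neighbour CES5A, another carboxylesterase, fell with dexamethasone in GRα cells by 0.54 on the log2 scale (SE 0.11, adjusted p = 0.0171), while in control cells its effect was -0.06. GNAO1, a G protein subunit gene on the same side, rose with dexamethasone in GRα cells by 0.43 ± 0.09 (adjusted p = 0.0183) and was higher in GRα vehicle cells by 0.47 ± 0.09 (0.00065). The line difference in dexamethasone effect called 0 of the 6 neighbours of CES1, so a different response of the lines was not shown for CES5A or GNAO1. The genes most like CES1 over all arrays were BEST3 (r 0.752), LINC01657 (0.748) and MRGPRX1 (0.738), and after each line's mean was subtracted EBI3 (0.736), BEST3 (0.734) and SNX29P2 (0.73).

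The remaining ligand comparisons called none of the 10 members. Dexamethasone in GRα cells called 2.02% of all genes (372), and 0 members reached even an unadjusted limma p under 0.05. The members' 95% intervals there reached from -0.40 to 0.39. AKR1C3 had the largest estimate, -0.19 ± 0.10 (SE), and its dexamethasone arrays, at 9.57, 9.57 and 9.42, lay just below its vehicle arrays, of which the lowest was 9.58. The highest of those vehicle arrays, at 9.91, was GRα vehicle replicate B, which stood apart. The size of the estimate without that array is not given here. Of all genes, 15.8% did not overlap between these groups. RU486 called 0% of all genes in GRα cells, where 1572 genes had an unadjusted limma p under 0.05, and 0% in control cells, where 621 did.

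At the same dose and time, dexamethasone and RU486 could be set against each other directly. The difference between them called 0.896% of all genes in GRα cells and 0.364% in control cells, and 0 members in each. In GRα cells the members' differences (dexamethasone minus RU486) had 95% intervals between -0.30 and 0.39, and in control cells between -0.33 and 0.44. For CES1 in control cells the difference was 0.15 (95% interval -0.10 to 0.40), and in GRα cells -0.01 (-0.29 to 0.27). AKR1D1 in control cells was 0.24 ± 0.10 (SE) higher with dexamethasone than with RU486, with arrays that did not overlap, an unadjusted limma p of 0.0247 and an adjusted p of 0.698. The arrays of 14.4% of all genes did not overlap in this comparison.

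Whether the lines responded differently was tested as an interaction. It called 0.0652% of all genes for dexamethasone (12, ZBTB16 among them) and 0% for RU486, where 745 genes had an unadjusted limma p under 0.05, and 0 members in each.

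The wider clearance pathway was described with gene lists, whose counts in vehicle stand beside the 33.4% of all genes called in that comparison. Of 21 other steroid reductases, dehydrogenases and hydroxylases measured, 4 were higher and 7 lower in GRα than in control vehicle cells. CYP39A1, an oxysterol hydroxylase, was higher by 0.97 ± 0.09 (SE, adjusted p = 2.36e-07). HSD17B13, a lipid droplet enzyme, was lower by 0.90 ± 0.08, CYP3A5, a steroid and drug hydroxylase, by 0.64 ± 0.09, and HSD17B12, an enzyme of fatty acid elongation, by 0.49 ± 0.11 (adjusted p at most 0.00196). The median difference of the list was -0.06.

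Of 13 conjugation enzymes measured, 2 were higher and 1 lower in GRα vehicle cells. UGT2B4, a glucuronosyltransferase of bile acids and steroids, was 3.71-fold higher (1.89 ± 0.15 SE, adjusted p = 1.77e-08) and STS, steroid sulfatase, 1.61-fold higher (0.69 ± 0.10). The mean signal of UGT2B4 over all arrays was low, at 4.42 against a lower quartile of 5.56 for all genes. SULT2A1, the sulfotransferase that makes DHEA sulfate, was 2.12-fold lower (-1.09 ± 0.09, adjusted p = 4.04e-08).

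Among 18 other efflux and uptake carriers, 1 was higher and 3 were lower, with a median of -0.01. SLCO3A1, an organic anion transporter, was higher by 1.03 ± 0.06, and ABCC4, an exporter of conjugated steroids and cyclic nucleotides, was lower by 0.66 ± 0.11 (adjusted p = 9.90e-05). ABCA1, the cholesterol exporter, was lower by 0.43 ± 0.11, and SLCO1A2, an uptake carrier, by 0.33 ± 0.08.

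The esterase list, to which CES1 would belong, had 1 higher and 6 lower of 14 measured, with a median of -0.11. ESD, S-formylglutathione hydrolase, was lower by 1.16 ± 0.09, PON3, a lactonase, by 0.97 ± 0.09, and LIPE, hormone-sensitive lipase, by 0.62 ± 0.07 (adjusted p at most 1.13e-06). SOAT1, which esterifies cholesterol, was higher by 0.32 ± 0.07. With dexamethasone in GRα cells CES5A and SOAT2, another sterol acyltransferase, fell, the latter by 0.30 on the log2 scale (SE 0.06, adjusted p = 0.00718), and the other 12 were not called. None of these 4 lists had another call for dexamethasone, and in control cells dexamethasone called 0 of their genes.

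The NADPH that the reductases use is supplied by another set of genes, of which 2 were higher and 9 lower of 16 measured in GRα vehicle cells, with a median of -0.27. IDH1, cytosolic isocitrate dehydrogenase, was lower by 0.73 ± 0.08, and PGD of the pentose phosphate pathway by 0.44 ± 0.07 (adjusted p = 5.87e-05). IDH2, the mitochondrial isoenzyme, was higher by 0.93 ± 0.07. Dexamethasone called 0 of the 16 in either line. Of 7 other aldo-keto reductases, KCNAB1 and KCNAB2, potassium channel β subunits, were higher by 0.26 and 0.22, and AKR1E2 was lower.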

How the data were processed

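RNA of 17 arrays in 6 groups taken from the labels was analysed. Per the labels' protocols, biotinylated cDNA came from 100 ng of RNA primed with random hexamers. The authors deposited log2 values of 29153 probe sets, and per the submitters' processing notes RMA and limma were used (versions: not given in the sources used here). RMA equalises the arrays' distributions, so a shift shared by most RNAs would not appear. Of 19460 probe sets with a single symbol, 19429 matched RefSeq by Entrez number; 1754 with several symbols and 7939 with none were left out. Each gene took its probe set with the highest mean (769 genes had several), giving 18417 genes.

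Every comparison was a two-sided contrast of a single fit (limma 3.58.1 under R 4.3.3, with 11 residual and 5.89 prior degrees of freedom) over all arrays, without a block, with Benjamini-Hochberg adjustment over all genes. The pipeline was tested on simulated data. All members were named, with up to 4 called genes per list and direction and the 3 genes of highest Pearson r. Some neighbours of ABCB1, the AKR1C genes, AKR1D1 and CES1 were named, and those of the other members were not. The members and lists were chosen with earlier results of these data known. Alternatives were other normalizations, filters, eBayes options, array weights, gene units, a replicate block, fits of the compared groups alone, a stricter threshold and leaving out each array. The number of arrays limits the precision.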

Additional observations from a re-analysis of the deposited data

How the results depend on the processing

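The 14 named fold changes with a call kept their direction under every alternative tried. Over the settings that leave out no array they gave 126 values, of which 123 stayed past the threshold and 3 did not: AKR1C1 in vehicle with only the groups compared, and CES1 with dexamethasone in control cells with that setting and with probe sets as the unit. The number of members called between the lines in vehicle, 3, was 5 with array weights and 1 at an adjusted p under 0.01, and ranged from 2 to 5 when single arrays were left out. The 1 member called with dexamethasone in control cells became 0 with probe sets as the unit, with only the groups compared and at an adjusted p under 0.01, and ranged from 0 to 1 without single arrays. The 4 members called in the average over treatments ranged from 4 to 7, the highest being without GRα RU486 replicate B, when CES1, H6PD and HSD11B2 were called too. For the other counts of members, no alternative that keeps all arrays moved the count by over 1.5 times. Over all genes, array weights called 148 with dexamethasone and 214 between the ligands in control cells (48 and 67 otherwise) and 22 for the line difference in dexamethasone effect (12); trend and robust eBayes called 74, 107 and 19. With only the groups compared the calls were 77 (372 otherwise) and 54 (165) for these ligand comparisons in GRα cells, 23 for dexamethasone in control cells, and 5 for the line difference, and with probe sets as the unit 26 for dexamethasone in control cells. Leaving out single arrays gave 200 to 601 calls with dexamethasone in GRα cells and 17 to 82 in control cells, 67 to 259 and 29 to 113 between the ligands, and 6 to 15 for the line difference.

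Groups share replicate letters, but same-letter arrays did not deviate together (r from -0.254 to 0.324 over 40 pairs, median -0.014, against -0.366 to 0.285, median 0.016, over 80 pairs of different letters), so the letters were not taken to pair the samples. With the letter as a replicate block, 3 members were called between the lines in each treatment, 1 with dexamethasone in control cells, 0 in the other ligand and interaction comparisons, and 5 in the average over treatments, where AKR1D1 was added.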

Other observations

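Target genes of the drug-sensing receptors PXR and CAR include several steroid-clearing enzymes. Of 9 measured, 5 were lower and 0 higher in GRα than in control cells in vehicle, with a median of -0.25 against 0.01 for all genes, where 33.4% were called. In dexamethasone CYP2C8, a drug-metabolising enzyme, was higher in GRα cells by 0.36 ± 0.08 (SE, limma adjusted p = 0.00264), while 5 of the 9 were lower. GSTA2 and GSTA1, glutathione transferases of the steroidogenic and liver type, were lower by 1.94 ± 0.15 (SE; 3.83-fold, limma adjusted p = 1.36e-08) and 1.17 ± 0.11 (2.26-fold, adjusted p = 2.45e-07). CYP3A4, a further steroid hydroxylase, was lower in vehicle by 0.39 ± 0.14 (limma adjusted p = 0.0338), and its mean signal, 4.23, was the lowest of this list. GSTA2 stayed lower by 1.64 in dexamethasone and 1.73 in RU486. Neither ligand called any of the 9, in GRα or in control cells.

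Genes that the oxidative stress factor NRF2 is known to activate, a group to which the AKR1C genes are often assigned, were called about as often as all genes (33.4%). Of 21 measured in vehicle, 2 were higher and 5 lower in GRα cells, with a median of -0.03. HMOX1, heme oxygenase 1, was higher by 0.72 ± 0.07 and SRXN1, sulfiredoxin, by 0.48 ± 0.07 (limma adjusted p at most 1.70e-05). CBR1, carbonyl reductase 1, was lower by 0.55 ± 0.08 (adjusted p = 1.55e-05). Of 10 glucocorticoid responsive reference genes, dexamethasone raised 7 in GRα cells and 5 in control cells and lowered 0, while RU486 changed 0 in either line, with limma. Over all genes dexamethasone called 2.02% in GRα cells and 0.261% in control cells. The list was chosen with earlier results of these data known, so its counts are a check of the labels and not an independent test.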
